A study of Homo sapiens with 2 samples.

Results

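CBFB has no DNA-binding activity of its own and joins RUNX1 on DNA. The study also placed CBFB in translation, through the RNA-binding protein hnRNPK and the initiation factor eIF4B. RUNX1 binding was therefore examined around 8 genes: HNRNPK, EIF4B and 6 further genes of translation initiation (EIF4H, EIF4E, EIF4G1, EIF4A1, EIF4EBP1 and EIF3A). The genes were named for their roles, with earlier results of these data known. A peak was counted for a gene when its summit lay inside the gene or within 50 kb of either end. Of 13591 RUNX1 peaks, 8 met this rule, and the 8 genes were part of 20033 protein-coding genes.

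RUNX1 ChIPseq, which maps the DNA recovered with an antibody against RUNX1, was made in MCF10A, an established line of non-tumorigenic human breast epithelium. The cells had their own RUNX1 deleted, were transduced with a lentivirus that expresses RUNX1 on induction, and received doxycycline at 1 µg/ml for 24 hours. There was 1 RUNX1 ChIPseq library (80338845 tags kept) and 1 Input library without antibody (87410774 tags kept), both from these cells. Thus RUNX1 came only from the inducible gene, and cells without induction were not analysed here. In the study, deletions were made with CRISPR and grown from single-cell colonies, and the inducible line was used after ChIPseq at the natural RUNX1 level had shown no strong binding. With 1 library of each kind there is no replicate, and the intervals below cover counting error only.

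Translation of most mRNAs begins when eIF4F assembles on the cap. eIF4E binds the cap, eIF4G1 is the scaffold, and eIF4A1 is the RNA helicase that opens structure in the leader. eIF4B and eIF4H stimulate the helicase, eIF4EBP1 holds eIF4E away from the scaffold until it is phosphorylated, and eIF3A belongs to the complex that links the mRNA to the small ribosomal subunit. hnRNPK binds C-rich RNA and DNA through its KH domains. RUNX proteins recognise short DNA sites of the form TGTGGT or TGCGGT.

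The sequences before the starts of EIF4B, EIF4H, EIF4E and EIF4G1 are shown, since EIF4B encodes a CBFB partner, EIF4H had the nearest summit, and EIF4E and EIF4G1 had distant ones. These are also the 4 of the 8 genes with an E-box in the promoter table. HNRNPK and EIF4A1 are not shown because neighbouring transcripts overlap the bases before their starts. They are the 250 bases before the RefSeq start in GRCh38.p14, read on the strand of each gene. They lie at chr12:53006206-53006455 (plus strand), chr7:74174106-74174355 (plus), chr4:98929134-98929383 (minus) and chr3:184314356-184314605 (plus). Capitals mark CACGTG, the E-box read by MYC and related factors. No RUNX letters occur in these stretches, so none are in capitals for RUNX.

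EIF4B: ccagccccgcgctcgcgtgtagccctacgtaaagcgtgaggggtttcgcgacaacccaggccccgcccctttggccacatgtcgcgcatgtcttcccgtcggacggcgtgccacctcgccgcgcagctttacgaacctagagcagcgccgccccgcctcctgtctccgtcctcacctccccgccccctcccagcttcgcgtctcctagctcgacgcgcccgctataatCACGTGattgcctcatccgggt

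EIF4H: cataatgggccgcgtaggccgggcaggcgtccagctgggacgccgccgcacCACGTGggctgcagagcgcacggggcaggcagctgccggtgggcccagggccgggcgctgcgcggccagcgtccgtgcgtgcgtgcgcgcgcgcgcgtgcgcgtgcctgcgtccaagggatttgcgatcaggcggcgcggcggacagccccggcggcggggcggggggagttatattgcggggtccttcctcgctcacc

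EIF4E: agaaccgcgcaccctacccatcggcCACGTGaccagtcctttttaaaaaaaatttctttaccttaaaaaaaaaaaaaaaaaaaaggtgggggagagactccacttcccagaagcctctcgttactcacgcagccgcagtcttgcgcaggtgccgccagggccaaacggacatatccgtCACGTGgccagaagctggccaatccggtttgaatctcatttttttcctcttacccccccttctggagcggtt

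EIF4G1: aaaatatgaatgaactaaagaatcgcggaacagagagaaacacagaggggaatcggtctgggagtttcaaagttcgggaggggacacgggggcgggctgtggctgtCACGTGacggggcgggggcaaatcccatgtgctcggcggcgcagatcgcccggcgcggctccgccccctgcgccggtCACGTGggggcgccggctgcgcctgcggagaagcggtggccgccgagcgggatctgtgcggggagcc

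The promoter table held 9 starts for 6 of the genes, and EIF4EBP1 and EIF3A had no entry. In windows of 250 bases before to 50 after the start, TGTGGT or TGCGGT on either strand was found at 0 of the 9 starts. The share was 19.6% of 35116 promoters in the table and 19.0% of the 22198 of protein-coding genes. With the longer TGTGGTT the count was also 0 of 9, against 4.27% of all promoters and 3.69% of those of protein-coding genes. The E-box, looked for after the sequences had been read, was present at 4 of the 9 starts, 1 each of EIF4B, EIF4H, EIF4E and EIF4G1. It was present in 7.26% of all promoters and in 8.34% of those of protein-coding genes. It was read once per place, since its letters are the same on both strands. EIF4E and EIF4G1 each held 2, the first bases of which lay 225 and 72 bases before the start in EIF4E, and 144 and 67 bases before it in EIF4G1. The GC content of the 250 bases was 50.4% in EIF4E, and 65.6% for HNRNPK, 67.6% for EIF4B, 67.2% for EIF4G1, 65.2% for EIF4A1 and 76.4% for EIF4H at the first start listed. These letters describe the sequence alone.

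RUNX1 summits lay inside 0 of the 8 genes. Among all protein-coding genes, 18.7% held a summit, and among the 9876 of the same length range as the 8 genes (6.18 to 49.9 kb) 11.9% did. Within 5 kb there was 1 of the 8 genes, EIF4H, against 24.8% of all. Within 50 kb there were 3 of 8, or 37.5%, EIF4H with 4 peaks and EIF4EBP1 and EIF3A with 2 each. The same window held a peak for 52.1% of all protein-coding genes and for 49.8% of those in the length range. Within 100 kb EIF4B was added, which gave 4 of 8 against 68.2%. At each of these windows the share of the 8 genes was below that of all genes. The direction turned within 50 kb when only peaks of at least 5-fold enrichment were counted, with 37.5% of the 8 genes and 35.1% of all. It also turned when a peak counted only for its nearest gene, with 37.5% against 29.3%. The difference was not tested, and 8 genes are few.

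**Figure D1:**
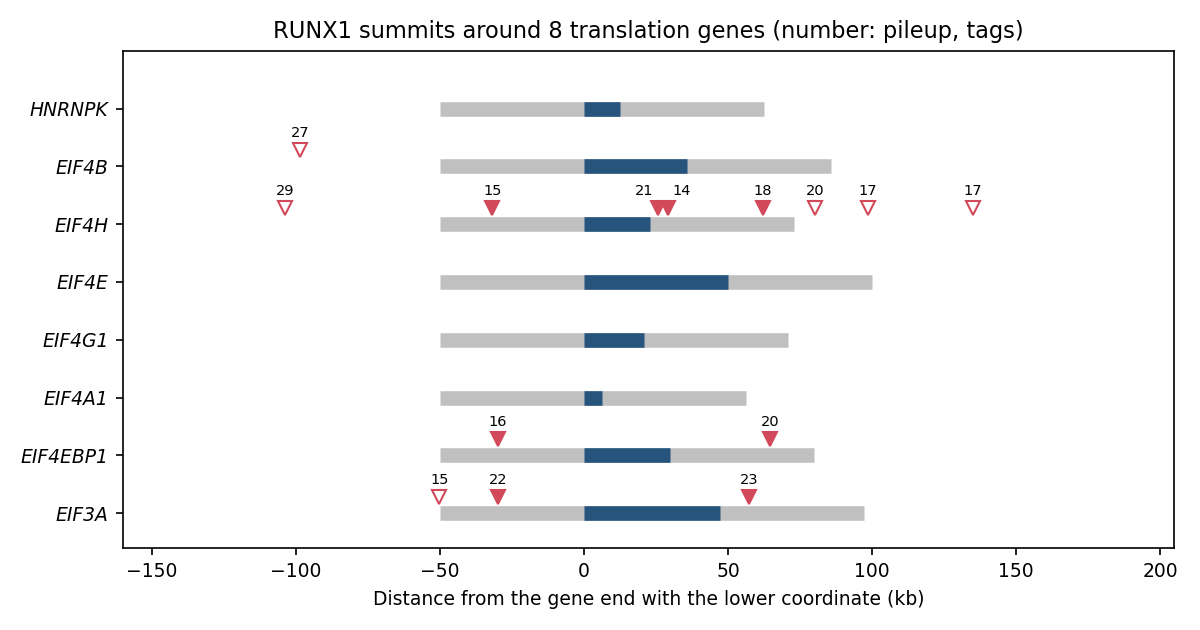
Positions of RUNX1 summits around the 8 genes. The x axis gives the distance in kb from the gene end with the lower coordinate, dark bars are the genes and grey bars the 50 kb on either side. Filled triangles are the 8 summits within 50 kb and open triangles others within 150 kb, with the pileup in tags above each. None stands on a dark bar, and 5 genes have no filled triangle.

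HNRNPK, which encodes the RNA-binding partner of CBFB, lies on chromosome 9 from 83968083 to 83980615 and is 12.5 kb long. It had 0 peaks within 100 kb. The nearest summit was 150 kb away, inside GKAP1, in a peak of 18 tags (exact 95% Poisson interval 10.7 to 28.4) and 85 bp. On the other side, the nearest was 603 kb away. A summit was nearer in 77.6% of all protein-coding genes.

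EIF4B, whose product stimulates the eIF4A helicase, lies on chromosome 12 from 53006456 to 53042215 and is 35.8 kb long. It also had 0 peaks within 50 kb. The nearest summit was 98.5 kb before its start and inside KRT8, a keratin gene of the neighbouring cluster. That peak was 254 bp wide and had 27 tags (17.8 to 39.3), a 5.00-fold enrichment and a local background 2.09 times the genome background of 2.20 tags. The next on the other side was 164 kb away inside ITGB7, with 26 tags (17.0 to 38.1) and an 8.43-fold enrichment. A summit was nearer in 67.9% of the protein-coding genes. Neither HNRNPK nor EIF4B, the genes of the CBFB partners, thus had a RUNX1 peak in the window.

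The genes of eIF4F were the farthest of the 8 from any summit. EIF4E (chromosome 4, 98879276 to 98929133, 49.9 kb) had its nearest at 258 kb, EIF4A1 (chromosome 17, 7572825 to 7579006, 6.18 kb) at 276 kb and EIF4G1 (chromosome 3, 184314606 to 184335358, 20.8 kb) at 376 kb. A nearer summit was found in 87.5%, 88.5% and 92.3% of all protein-coding genes, respectively. For comparison, 31.8% of these genes had no summit within 100 kb, and the median distance was 45.5 kb. The summit nearest to EIF4E was in a peak of 25 tags (16.2 to 36.9) and 210 bp, 15.2 kb from ADH6. The one nearest to EIF4A1 was weak, with 17 tags (9.90 to 27.2), a 2.76-fold enrichment and a −log10 q of 1.54, and was 1.84 kb from YBX2. The one nearest to EIF4G1 lay inside MAGEF1, with 23 tags (14.6 to 34.5) and a 7.10-fold enrichment.

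Gene content varied among the windows without a peak. The 5 windows of HNRNPK, EIF4B, EIF4E, EIF4G1 and EIF4A1 met 24 other protein-coding genes, with 10 around EIF4A1, 8 around EIF4G1, 4 around HNRNPK, 2 around EIF4B and 0 around EIF4E. The 3 windows with peaks met 5, with 2 each around EIF4H and EIF3A and 1 around EIF4EBP1. The lowest pileup of any peak at the genome background was 10 tags, seen in 24 peaks, so sites much lower than this were not detectable in this list.

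**Figure D2:**
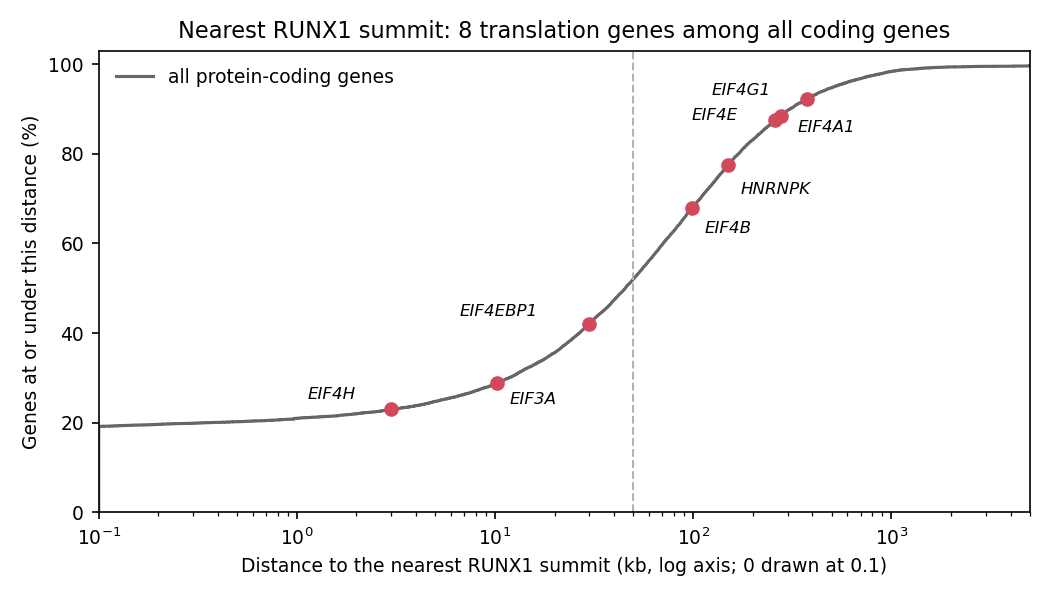
Distance from each gene to its nearest RUNX1 summit. The x axis is the distance in kb on a log axis, the y axis the percentage of the 20033 protein-coding genes at or under it, and the dashed line marks 50 kb. EIF4H, EIF3A and EIF4EBP1 lie left of the line, and the eIF4F genes EIF4E, EIF4A1 and EIF4G1 lie near the top of the curve.

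EIF4H, the helicase cofactor related to eIF4B, stood apart from the other 7 genes by its number of peaks. It lies on chromosome 7 from 74174356 to 74197096, is 22.7 kb long and is read from the plus strand. Of all protein-coding genes, 6.67% had at least 4 summits in the window, as EIF4H had. None of its 4 was at the promoter, and the one closest to the start was 25.7 kb from it.

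The summit closest to EIF4H was 2.99 kb past the far end of the gene, 25.7 kb after its start. This peak, at chr7:74199961-74200256, was 296 bp wide, and only 9.25% of all peaks were wider. Its pileup was 21 tags (13.0 to 32.1), with a 6.87-fold enrichment, a −log10 q of 10.3 and a background equal to that of the genome. Of all peaks, 29.6% were taller.

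A second summit followed 3.31 kb further on, 6.30 kb from the gene, at chr7:74203347-74203444. It was narrower (98 bp) and lower, with 14 tags (7.65 to 23.5), a 4.68-fold enrichment and a −log10 q of 4.31. EIF4H was the nearest protein-coding gene for both, although for the second the next gene was almost as close, at 6.61 kb. The intervals of both pileups overlapped.

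The other EIF4H peaks were nearer to other genes. At 39.4 kb, the peak chr7:74236348-74236573 had its summit inside RFC2, which encodes a subunit of the clamp loader of DNA replication. It had 18 tags (10.7 to 28.4) over 226 bp, a 5.93-fold enrichment and a −log10 q of 7.60. Before the start, at 31.9 kb, the peak chr7:74142444-74142626 was 20.0 kb from LIMK1, a kinase of the actin cytoskeleton. It had 15 tags (8.40 to 24.7) over 183 bp, a 4.26-fold enrichment, a −log10 q of 3.90 and a background 1.25 times that of the genome. The 4 summits spanned 94.0 kb, and 2 more lay within 100 kb of the gene, with 20 and 17 tags.

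EIF4EBP1, which encodes the inhibitor of eIF4E, lies on chromosome 8 from 38030534 to 38060365 and is 29.8 kb long. One peak was found on each side and none within 5 kb. The peak from 38000601 to 38000689, 29.9 kb from the gene, was 89 bp wide with 16 tags (9.15 to 26.0), a 5.24-fold enrichment and a −log10 q of 5.81. EIF4EBP1 was its nearest protein-coding gene. The peak from 38095160 to 38095323, at 34.9 kb, was 164 bp wide with 20 tags (12.2 to 30.9), a 6.56-fold enrichment and a −log10 q of 9.38. It was closer to ASH2L, a subunit of histone H3 methyltransferase complexes, at 10.3 kb. Both summits lay in no RefSeq gene, and their backgrounds were 1.02 and 1.00 times that of the genome.

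EIF3A, which encodes the largest subunit of eIF3, lies on chromosome 10 from 119033670 to 119080817 and is 47.1 kb long. It had the 2 highest of the 8 peaks. The peak chr10:119091020-119091246, 10.3 kb from the gene, reached 23 tags (14.6 to 34.5) over 227 bp, with a 7.50-fold enrichment and a −log10 q of 12.2, which 16.0% of all peaks exceeded. EIF3A was its nearest protein-coding gene, and the next was 13.0 kb away. The peak chr10:119003761-119003929, at 29.9 kb on the other side, had 22 tags (13.8 to 33.3) over 169 bp, a 6.12-fold enrichment and a −log10 q of 9.38. It lay inside the long non-coding gene LINC03036 and was 25.9 kb from NANOS1, a translational repressor gene whose interval overlaps that of EIF3A. A further summit of 15 tags fell just outside the limit, at 50.2 kb.

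**Figure D3:**
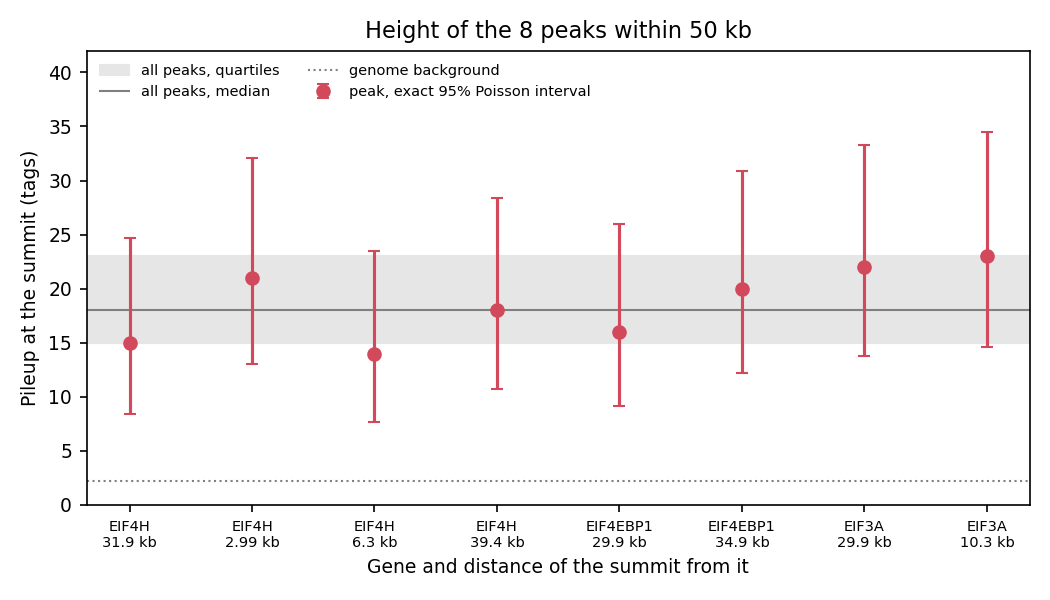
Height of the 8 peaks within 50 kb. The y axis is the pileup in tags, the points are single peaks with exact 95% Poisson intervals, and each is labelled with its gene and its distance in kb. The solid line and grey band are the median of 18 and the quartiles of 15 and 23 tags over all 13591 peaks, and the dotted line is the genome background. All 8 points lie between 14 and 23 tags, and their intervals overlap.

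In strength the 8 peaks resembled the list as a whole. Their pileups ran from 14 to 23 tags with a median of 19, and the median of all peaks was 18 with a highest value of 148. Their median fold enrichment was 6.03 against 5.06, their median −log10 q was 8.49 against 5.90, and their median width was 176 bp against 153 bp. More than the median width was reached by 6 of the 8. A fold enrichment of at least 5, which lies just under the median of 5.06 over all peaks, was also reached by 6. Every pair of the 8 intervals overlapped, so no peak could be ranked above another by counting error alone. For 4 of the 8 the listed gene was the nearest protein-coding gene, and the other 4 were nearer to LIMK1, RFC2, ASH2L or NANOS1. By this stricter rule the genes with a peak were again EIF4H, EIF4EBP1 and EIF3A, 3 of 8, against 29.3% of all protein-coding genes. The mean number of peaks in a window was 1.00 for the 8 genes and 1.07 for all protein-coding genes. Per Mb of window, counting overlapping windows each time, it was 7.81 and 6.49, but EIF4H gave 4 of the 8 peaks, and without it, a setting chosen after seeing the data, the other 7 genes had 4.43 per Mb and a mean of 0.571.

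The related genes of each subunit were measured alongside. EIF4A2, which encodes the other eIF4A helicase of the cytoplasm, had a summit 254 bp before its start, in contrast to the 276 kb of EIF4A1. That peak, at chr3:186783266-186783354, was 89 bp wide with 16 tags (9.15 to 26.0), a 5.27-fold enrichment and a −log10 q of 5.87. EIF4E3 held a summit, with 15 tags (8.40 to 24.7) and a 4.26-fold enrichment. EIF4E2 had a weak one at 27.9 kb, with 12 tags (6.20 to 21.0), a 3.46-fold enrichment and a −log10 q of 1.96. For the scaffold, EIF4G3 had its nearest summit at 45.6 kb and EIF4G2 at 71.5 kb. Of the inhibitors, EIF4EBP2 held a summit 1.48 kb after its start, with 13 tags (6.92 to 22.2), a 4.37-fold enrichment and a −log10 q of 3.56. EIF4EBP3 had one at 39.8 kb, with a 3.23-fold enrichment over a background 2.92 times that of the genome. Among genes for KH-domain proteins that bind C-rich RNA, like hnRNPK, PCBP1 had a summit 0.750 kb before its start, with 20 tags (12.2 to 30.9) and a 6.56-fold enrichment, and PCBP2 held 1 of 15 tags (8.40 to 24.7). PCBP3, which is 299 kb long, held 3, the highest with 64 tags (49.3 to 81.7) and a 20.3-fold enrichment. PCBP4, which is 10.0 kb long, had its nearest summit at 69.7 kb.

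Of 37 other initiation factor genes, 22 or 59.5% had a peak within 50 kb and 5 or 13.5% held a summit, beside 52.1% and 18.7% of all protein-coding genes. The list was thus above all genes within 50 kb but below them inside the gene. It was also below within 5 kb, with 7 of 37 or 18.9% against 24.8%. With peaks of at least 5-fold enrichment alone, 17 of 37 had one within 50 kb, still above the 35.1% of all. The direction turned within 50 kb when a peak counted only for its nearest gene, with 8 of 37 against 29.3%. For the lists here and below, distances are to the list gene, and another protein-coding gene may be nearer to a peak. The strongest peak was at EIF3B, a core subunit of eIF3, 19.4 kb from the gene with 41 tags (29.4 to 55.6) and a 13.1-fold enrichment. EIF2D had 7 peaks in the window, 3 of them inside. Its peak with the highest −log10 q had 35 tags (24.4 to 48.7) and lay outside, 33.9 kb from the gene. Of the summits inside EIF2D, the one with the lowest coordinate was weak, with 15 tags (8.40 to 24.7). It had a 2.86-fold enrichment, a −log10 q of 1.49 and a background 2.09 times that of the genome. EIF5A2 had a peak of 29 tags (19.4 to 41.6) 0.988 kb before its start, and EIF5A one of the same height at 13.7 kb. EIF1, which takes part in start codon selection, had its best at 22.9 kb with 32 tags (21.9 to 45.2). EIF2S2, a subunit of eIF2, had 1 at 45.6 kb with 30 tags (20.2 to 42.8). EIF2B3, EIF3J and EIF3M held 1 summit each, with 15 to 18 tags. Their windows held 37 different peaks.

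Of 25 other genes for hnRNP and poly-C binding proteins, 12 or 48.0% had a peak within 50 kb and 5 or 20.0% held a summit. These shares were near the 52.1% and 18.7% of all protein-coding genes. With peaks of at least 5-fold enrichment alone, 7 of 25 had one within 50 kb, below the 35.1% of all. When a peak counted only for its nearest gene, 5 of 25 had one, below the 29.3% of all. After PCBP3, the strongest were at HNRNPAB, at 26.4 kb with 43 tags (31.1 to 57.9), and inside HNRNPUL1, with 31 tags (21.1 to 44.0). HNRNPM and HNRNPLL also held a summit, of 28 and 12 tags. HNRNPA1, a splicing regulator, had 1 peak at 17.3 kb with 26 tags (17.0 to 38.1), and HNRNPR 1 at 25.3 kb with 23 tags (14.6 to 34.5).

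Of 18 genes for regulators of the cap-binding complex and their kinases, 12 or 66.7% had a peak within 50 kb and 5 or 27.8% held a summit, beside 52.1% and 18.7% of all protein-coding genes. The list was no longer above all genes when only peaks of at least 5-fold enrichment counted, with 6 of 18 against 35.1%. When a peak counted only for its nearest gene, 6 of 18 had one, against 29.3%. RPTOR, the subunit of mTORC1 that recruits substrates such as eIF4EBP1, is 422 kb long and held 5 summits. The highest had 44 tags (32.0 to 59.1), a 14.1-fold enrichment and a width of 701 bp. PDCD4, which encodes an inhibitor of eIF4A, had a peak of 28 tags (18.6 to 40.5) at 20.7 kb. MLST8, another subunit of the mTOR complexes, RPS6KB1, an S6 kinase that phosphorylates eIF4B, and RPS6KA1 held 1 summit each. These had 11 (5.49 to 19.7), 12 (6.20 to 21.0) and 16 tags (9.15 to 26.0), below the median of 18 over all peaks. Their fold enrichments were 3.75, 4.06 and 3.64, and their −log10 q values 2.17, 2.85 and 3.05. PPP2CA, the catalytic subunit of a phosphatase, had 1 peak at 17.6 kb with 23 tags (14.6 to 34.5), and MKNK1 and MKNK2, the kinases of eIF4E, had 2 and 3 peaks, those with the highest −log10 q having 18 tags (10.7 to 28.4) each. The summit nearest to MKNK2, at 4.98 kb, had 19 tags (11.4 to 29.7) but was weak. It had a 3.07-fold enrichment, a −log10 q of 2.53 and a background 2.50 times that of the genome. The median gene length was 43.4 kb in this list, 19.2 kb for the initiation factors and 14.9 kb for the hnRNP list, against 24.1 kb for all protein-coding genes. The part of gene length in these shares was not tested.

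**Figure D4:**
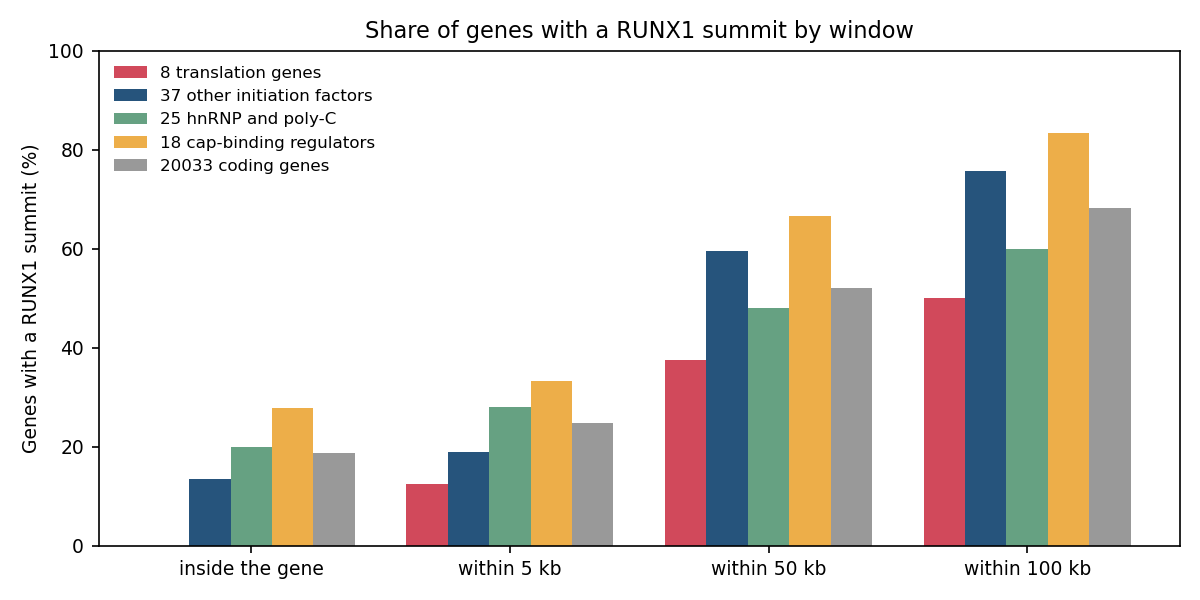
Percentage of genes with a RUNX1 summit inside the gene or within 5, 50 or 100 kb. Bars are the 8 translation genes, the 3 lists of related genes and all 20033 protein-coding genes. The 8 genes reach 0% inside and 37.5% within 50 kb, where all protein-coding genes reach 18.7% and 52.1%.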

How the data were processed

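RUNX1 ChIPseq and Input DNA were sequenced from 1 library each, grouped by the antibody in their labels. Bowtie2 and hg38 are named in the submitters' processing notes, and the other alignment settings are not given in the sources used here. Per the file headers, the authors called peaks with MACS 2.1.2 at a q limit of 0.05, extending 54 bp tags to 74 bp and keeping 1 tag per position, which limits the pileup to 148. The pileup deposited by the authors is a signal (tags at the summit), and their deposited fold enrichment is its ratio to the local background after adding 1 to both. The deposited p-value and q-value are −log10 values.

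The background was recovered from pileup and fold. Distances run from the summit to the nearest end of the gene in RefSeq's GRCh38.p14 table, which matched 88 of 88 symbols. Starts came from RefSeq's promoter table, whose build is the same. Pileups have exact 95% Poisson intervals, for counting error only (Python 3.11.15, scipy 1.17.1). The window counts were checked on simulated peaks at known distances. No test between samples was possible. Members and lists were chosen with earlier results of these data known. Genes named were the 8, those nearest to their peaks, and in each list the 6 with the highest −log10 q or those holding a summit. KRT8, ITGB7, GKAP1, ADH6, YBX2, MAGEF1, EIF4A2, PCBP1, PCBP4, EIF4G2, EIF4G3, EIF4E2, EIF4EBP3 and LINC03036 were named after their values were seen. Alternatives covered the window, q, fold, overlap, merging and the motif.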

Additional observations from a re-analysis of the deposited data

How the results depend on the processing

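Of 44 alternatives over 7 results, 28 left the count within 1.5 times, some of them by construction. Of the 8 genes, 3 had a peak when the fold enrichment had to be at least 5 and when the q limit was 0.01. The count was also 3 when any base could overlap and when peaks within 1 kb were merged. Inside the genes it was 0 in each setting tried. The lowest −log10 q of the 8 peaks was 3.90, so the q limit of 0.01 could drop none of them. The closest of their summits were 3.31 kb apart, so merging within 1 kb could join none of them. Stricter q or fold limits could not raise a count of 0 inside the genes. The counts fell with narrower windows by construction. With the gene alone, peaks of the 8 genes went from 8 to 0 and genes with a peak from 3 to 0. With 5 kb on either side they were 1 and 1. In the lists, genes with a peak went from 22 to 5 (gene alone) and 7 (5 kb) for the initiation factors. They went from 12 to 5 and 7 for the hnRNP list, and from 12 to 5 and 6 for the cap-binding regulators. Among all protein-coding genes, 18.7% (gene alone) and 24.8% (5 kb) had a peak. Beside these, the initiation factors had 13.5% and 18.9%, the hnRNP list 20.0% and 28.0%, and the cap-binding regulators 27.8% and 33.3%. A fold enrichment of at least 5 left 7 in the hnRNP list and 6 among the cap-binding regulators, by construction since weaker peaks are dropped, and the share of all protein-coding genes also fell from 52.1% to 35.1%. Counting only peaks with no nearer protein-coding gene, an alternative chosen after seeing the data, left 4 peaks of the 8 genes. In the lists it left 8 of 37 initiation factors, 5 of 25 hnRNP genes and 6 of 18 cap-binding regulators, against 29.3% of all protein-coding genes. The initiation factors and the hnRNP list were then below all genes, and the cap-binding regulators above. The planned search for RUNX letters at the summits was not run, since it needs a genome sequence. No paired analysis was possible because RUNX1 ChIPseq and Input were a single library each. With pileups of 14 to 23 tags, counting error was wider than the differences between the 8 peaks, and no second library was analysed here.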
